A study of Mus musculus with 15 samples.

Results

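Zfp36, Dusp1, Ier2, Ier3, Btg2, Rhob, Klf6 and Nr4a1 are serum-induced genes whose products restrain or shape the signalling that switches them on. They were taken by name, and each of the 8 was read by 1 probe set (a set of short probes against 1 transcript), out of 8221 genes that the array annotation names. The 8 genes were followed in mouse embryonic stem (ES) cells of 3 lines: the Srf-null line E100-/-, a rescue line made from it (E100-/- rescue) and the wild-type line E14. Cells of each line received fetal bovine serum (FBS) for 0, 10, 30, 60 or 180 min, and total RNA of each line and time was hybridised to 1 Affymetrix MGU74A array, 15 arrays in all. The labels give neither the way in which the rescue was made, nor whether cells were kept without serum before it was added, so that the state at 0 min is not known, nor any repeat culture, and each line is 1 culture series and every p-value below measures the spread between time points and lines, not between independent cultures.

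Serum activates the MAP kinase cascade, which acts on serum response factor (SRF). SRF binds promoters at a sequence called the CArG box, together with ternary complex factors or with myocardin-related factors. The first genes to be transcribed are the immediate-early genes, which need no new protein. Some of them encode transcription factors, and others encode proteins that turn the response down: phosphatases that switch off MAP kinases, proteins that speed the decay of short-lived mRNAs, and inhibitors of cell division. In ES cells SRF is known for its part in the actin cytoskeleton and in adhesion.

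The promoters of 7 of the 8 genes were found in RefSeq (mouse build GRCm38.p6); Ier2 was the eighth. The 250 bases before the transcription start are shown for the genes whose serum course is described most closely here. They were searched on both strands for the CArG box, for a CArG box with 1 G or C among its central A and T bases, for the cAMP response element (CRE) TGACGTCA, for its half-site TGACG, which also lies within the whole CRE, and for the EGR factor site GCGGGGGCG. Capitals mark every match, written as it reads on the gene's own strand.
Zfp36: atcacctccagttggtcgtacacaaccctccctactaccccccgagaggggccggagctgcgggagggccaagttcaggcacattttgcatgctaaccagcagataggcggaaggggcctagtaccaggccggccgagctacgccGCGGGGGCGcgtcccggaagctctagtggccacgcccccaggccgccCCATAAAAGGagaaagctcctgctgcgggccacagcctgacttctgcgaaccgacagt
Dusp1: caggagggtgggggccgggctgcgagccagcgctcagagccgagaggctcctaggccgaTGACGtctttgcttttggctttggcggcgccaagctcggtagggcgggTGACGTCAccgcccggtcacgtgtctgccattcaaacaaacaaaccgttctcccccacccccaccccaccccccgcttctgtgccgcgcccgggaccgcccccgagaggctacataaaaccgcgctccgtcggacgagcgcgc
Btg2: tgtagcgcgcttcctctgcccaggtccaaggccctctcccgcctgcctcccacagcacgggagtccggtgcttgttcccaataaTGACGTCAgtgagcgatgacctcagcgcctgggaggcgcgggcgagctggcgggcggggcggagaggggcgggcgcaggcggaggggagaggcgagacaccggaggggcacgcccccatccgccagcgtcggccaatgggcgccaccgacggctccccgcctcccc
Nr4a1: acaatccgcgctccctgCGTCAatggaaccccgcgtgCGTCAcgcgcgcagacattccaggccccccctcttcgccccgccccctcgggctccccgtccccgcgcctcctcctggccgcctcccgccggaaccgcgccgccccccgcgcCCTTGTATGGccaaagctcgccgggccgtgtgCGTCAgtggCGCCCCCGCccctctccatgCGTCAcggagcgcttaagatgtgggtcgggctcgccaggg
Rhob: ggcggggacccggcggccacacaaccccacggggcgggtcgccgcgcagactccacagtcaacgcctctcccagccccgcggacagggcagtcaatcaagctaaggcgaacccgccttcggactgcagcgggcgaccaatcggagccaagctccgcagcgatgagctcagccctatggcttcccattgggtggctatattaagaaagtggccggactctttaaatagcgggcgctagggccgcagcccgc

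The Zfp36 stretch (chr7:28379229-28379478, minus strand) held a CArG box 58 to 49 bases before the start and an EGR site further upstream. A CArG box was found in 1.47% of 32851 promoters of the same length, and an EGR site in 2.57%. Both Dusp1 (chr17:26508473-26508722, minus strand) and Btg2 (chr1:134079156-134079405, minus strand) held a whole CRE, which 1.55% of promoters had. The Nr4a1 stretch (chr15:101266596-101266845, plus strand) held the CArG box with 1 changed base, found in 7.24% of promoters, 4 CRE half-sites and an EGR site. At least 1 CRE half-site was found in 17.8% of promoters. The window of Ier3 held 2 CArG boxes with 1 changed base. None of these letters occurred in the windows of Rhob (chr12:8500010-8500259, minus strand) or Klf6. These matches describe the sequence only.

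Values below are normalized intensities on a linear scale, made comparable between arrays by quantile normalization, and differences are on the log2 scale. Values under 84.98 (log2 6.41), the 40th percentile of all normalized values, cannot be told from background and were set to that floor before log2 was taken. Of the 8 probe sets, 6 lay above the floor on all 15 arrays, Zfp36 on 13 and Ier3 on 12. A call is a limma adjusted p under 0.05 (Benjamini-Hochberg) over all probe sets that exceeded the floor on 2 arrays or more, 9558 with all arrays and 9198 with the 12 arrays from 10 min on, and all 8 genes were tested.

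The arrays of the wild-type line and of the rescue line at 0 min stood apart from the rest of their own lines. The imprinted growth factor gene Igf2, with 2640.4 to 10240.1 units on the later arrays of these lines, was listed below 0 on both, and Actg1, a cytoplasmic actin gene, read 8891 in rescue and 9783 in wild-type cells there, against 27390 units or more at the later times of the same lines. Every Srf-null array also had Igf2 below 0, at -1814.6 to -673.0, and Actg1 at 7327 to 14004 units. On both genes these 2 arrays thus read like the Srf-null line. Whether they hold the line of their label was not tested. The 3'/5' signal ratio of the actin control, a measure of RNA integrity, was 4.22 on the rescue and 7.53 on the wild-type array of 0 min, with a median of 1.64 over the 15 arrays. The same ratio of the Gapdh control was 0.722 on that rescue array and 1.51 on that wild-type array. On the other arrays it was 0.683 to 1.27, so the 2 controls differed for the rescue array. Nearness between arrays did not follow the lines throughout: the rescue array of 0 min correlated best with an Srf-null array (180 min, r = 0.939), but so did that of rescue 10 min (Srf-null 30 min, 0.943) and that of wild-type 30 min (Srf-null 10 min, 0.944), while wild-type 0 min was nearest to its own line. Results are therefore given with all arrays and without the 0 min arrays. The Srf gene itself has no probe set named on the array, so the genotype could not be checked through it. ES cell markers were present throughout: 10 of 12, Pou5f1 and Sox2 among the list, lay above the floor on every array, and their summed intensity ranged over 88027 to 122986 in Srf-null, 79101 to 101155 in rescue and 69661 to 116175 in wild-type cells. Of 9 fibroblast and 7 endoderm markers, 2 and 1 did so, Col1a2 and Foxa2 were never above the floor, and the highest sums were 3826 and 2691.

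Later serum times separated from earlier ones in every line for most of the 8 genes. The split at 60 min, with or without the 0 min arrays, was chosen after the values had been seen. The counts, p-values and ranks given for it below are therefore not independent of these values. The phases laid out first are given further below. In 6 of the 8 genes, namely Zfp36, Dusp1, Ier2, Rhob, Klf6 and Nr4a1, the values at 60 and 180 min both lay above those at 10 and 30 min in each of the 3 lines. Of the 9558 probe sets, 1.13% did so. With the 0 min arrays among the earlier times the count was 4 (Zfp36, Ier2, Rhob and Nr4a1), against 0.146% of all probe sets. The highest value from 10 to 180 min stood at 180 min in each line for 6 genes, all but Ier2 and Ier3, against 2.78% of probe sets. This held for normalized intensities. In the deposited intensities of wild-type cells, all 6 were higher at 60 than at 180 min. The same was seen for Zfp36, Rhob and Klf6 in rescue cells, so the time of the peak depended on the normalization. The trimmed mean of the deposited values was 1438 on the wild-type array of 60 min and 452 on that of 180 min.

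**Figure D1:**
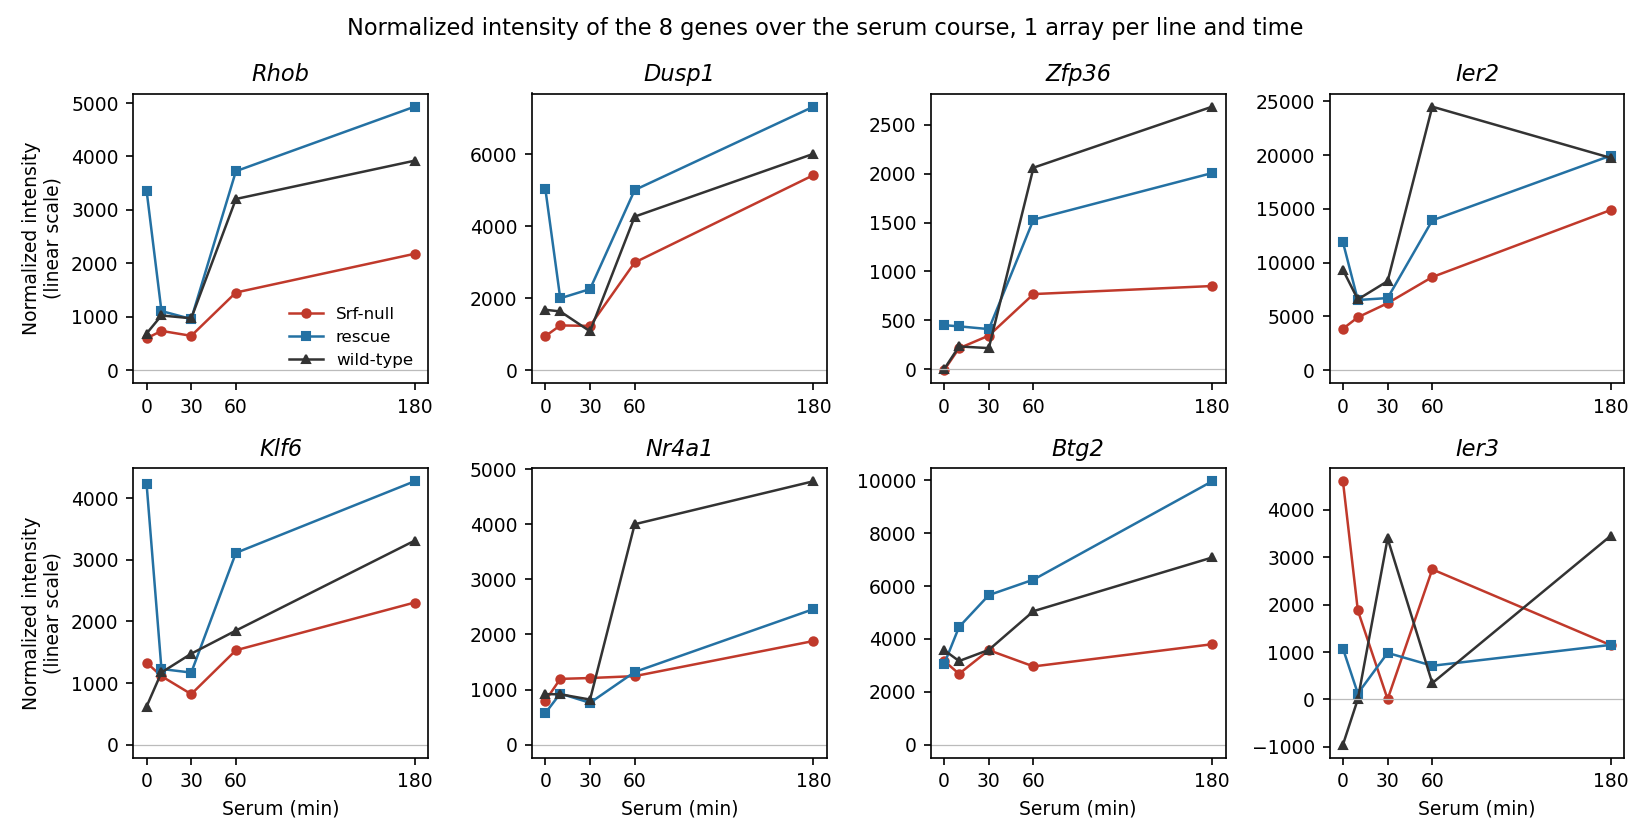
Normalized intensity (linear scale, y axis, with its own range for each gene) against minutes of serum (x axis) for the 8 genes in Srf-null (red circles), rescue (blue squares) and wild-type cells (black triangles), 1 array per point. For Rhob, Dusp1, Zfp36, Ier2, Klf6 and Nr4a1 the points at 60 and 180 min lie above those at 10 and 30 min in every line, Btg2 does so in rescue and wild-type cells, and Ier3 has no common course.

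Rhob encodes a small GTPase that acts on the cytoskeleton and on vesicle traffic. In Srf-null cells its probe set read 594, 734, 641, 1452 and 2177 units at 0, 10, 30, 60 and 180 min. Rescue cells had 3362, 1105, 956, 3724 and 4931 units at the same times. Wild-type cells had 684, 1022, 969.7, 3203 and 3920.0 units. The course was flat up to 30 min and high from 60 min on in each line, apart from the high rescue value at 0 min, and at 60 and 180 min the Srf-null values were the lowest of the 3 lines. Over the lines and without the 0 min arrays, 60 and 180 min exceeded 10 and 30 min by 1.76 ± 0.15 on the log2 scale (SE, 12 arrays, 3.38-fold; limma adjusted p = 0.000735), first of 9198 probe sets by p.

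Dusp1 encodes a phosphatase that inactivates MAP kinases. Its values were 942, 1239, 1228, 2988 and 5413 units from 0 to 180 min in Srf-null cells. Rescue cells had 5029, 1994, 2249, 5001 and 7315 units. In wild-type cells they were 1675, 1628, 1077, 4263 and 6006 units. In normalized intensity all 3 lines climbed between 30 and 60 min and again to 180 min, and only the rescue array at 0 min stood as high as the late ones. The deposited intensities of wild-type cells were 6732 at 60 min and 3084 at 180 min. The difference of 60 and 180 min from 10 and 30 min was 1.72 ± 0.17 (SE, 12 arrays, 3.29-fold; limma adjusted p = 0.00143).

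Zfp36 encodes tristetraprolin, which binds AU-rich elements and brings short-lived mRNAs to decay. In Srf-null cells it read -10.2, 213, 343, 768 and 850.3 units. Rescue cells had 449, 438, 409, 1529.7 and 2007 units. Wild-type cells had -0.0815, 232, 215, 2062 and 2686 units. The 0 min values of Srf-null and wild-type cells were at background, and the late values were ordered with Srf-null lowest and wild-type highest. The difference was 2.34 ± 0.29 without the 0 min arrays (SE, 5.07-fold; limma adjusted p = 0.00612), the largest of the 8 genes.

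Ier2 encodes an immediate-early nuclear protein. Srf-null cells had 3846, 4909, 6222, 8653 and 14896 units over the course. Rescue cells had 11893, 6518, 6697, 13924 and 19953 units. Wild-type cells had 9316, 6572, 8271, 24499 and 19728 units. The Srf-null and rescue lines were highest at 180 min. In wild-type cells the deposited intensities at 60 and 180 min were 21780.1 and 21873, so which of these 2 times was higher depended on the normalization. The Srf-null series was also below both other lines at 0, 10 and 30 min. The difference was 1.32 ± 0.16 (SE, 12 arrays, 2.49-fold; limma adjusted p = 0.00499).

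Klf6 encodes a zinc-finger transcription factor that restrains cell growth. Its values were 1331, 1111, 819, 1531 and 2305 units in Srf-null cells. Rescue cells had 4231, 1228, 1169, 3111 and 4272 units. Wild-type cells had 618, 1171, 1475, 1850.4 and 3308 units. The rescue array at 0 min was as high as that at 180 min, and in wild-type cells the normalized values climbed at each time, which the deposited ones did not. The difference was 1.17 ± 0.19 without the 0 min arrays (SE, 2.24-fold; limma adjusted p = 0.0307), while with all 15 arrays it was 1.03 ± 0.29 (adjusted p = 0.836). The call of Klf6 was lost in 11 of 20 alternative settings of the 12-array comparison, among them those that left out the wild-type array of 10 or 180 min, the Srf-null array of 30 or 180 min or any 1 rescue array (limma adjusted p 0.0778 to 0.105).

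Nr4a1 encodes the orphan nuclear receptor Nur77. Srf-null cells had 796, 1194, 1209, 1244 and 1881 units from 0 to 180 min. Rescue cells had 573, 927, 759, 1319 and 2459 units. In wild-type cells it read 916, 914, 818, 4000.2 and 4779.7 units. The steep change between 30 and 60 min was seen in wild-type cells, at 4.89-fold, against 1.03-fold in Srf-null and 1.74-fold in rescue cells. Over the 3 lines the difference of later from earlier times was 1.26 ± 0.29 without the 0 min arrays (SE, 2.40-fold; limma adjusted p = 0.145) and 1.38 ± 0.26 with all arrays (adjusted p = 0.105), so it was not called in either.

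Btg2 encodes an antiproliferative protein that joins the deadenylation machinery to mRNAs. In Srf-null cells it had 3168, 2680.0, 3576, 2961 and 3800.2 units. Rescue cells had 3049, 4453, 5659, 6245 and 9967 units, and wild-type cells had 3577, 3164, 3587, 5052 and 7082 units. The values at 60 and 180 min lay above all earlier ones in rescue and in wild-type cells, and overlapped with them in Srf-null cells. The mean difference of 0.53 ± 0.17 (SE, 12 arrays, 1.45-fold) did not pass the test (limma adjusted p = 0.397).

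Ier3 encodes a stress-inducible protein that acts on cell survival. It read 4604, 1877, 5.28, 2745 and 1143 units in Srf-null cells. Rescue cells had 1073, 125, 982, 710.4 and 1151 units, and wild-type cells had -954, 5.35, 3397, 344 and 3457 units. Values under the floor were seen in Srf-null cells at 30 min and in wild-type cells at 0 and 10 min, and the lowest rescue value was that of 10 min. The times of the high values differed between lines, though at 180 min each line read 1143 units or more. Its difference between later and earlier times had an SE of 1.02, over 3 times that of any other of the 8 genes, and no call was made for it (limma adjusted p = 0.757).

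Taken over the lines without the 0 min arrays, 60 and 180 min against 10 and 30 min gave 5 calls among the 8 genes (Rhob, Dusp1, Ier2, Zfp36 and Klf6), all higher. Over all 9198 probe sets, 22 rose (0.239%) and 1 fell. This contrast was chosen after the values had been seen. With all 15 arrays and 0 min among the earlier times, 5 probe sets rose (0.0523%) and 1 fell; 4 of the 5 belonged to the 8 genes, and they had the 4 smallest p-values of 9558: Ier2 at 1.24 ± 0.18, Dusp1 at 1.58 ± 0.23, Zfp36 at 2.67 ± 0.39 and Rhob at 1.65 ± 0.25 (SE; limma adjusted p = 0.0156 each). The remaining calls were the transcription factor gene Atf3 at 2.27 and Rhbdl3, of the rhomboid family, at -2.37. All 4 calls ended when the array of wild-type 60 min, wild-type 180 min, Srf-null 180 min or rescue 180 min was left out (limma adjusted p 0.0597 to 0.0898), or when no filter on low values was used (0.111), and that of Ier2 also under median scaling (1.19, adjusted p = 0.417). In the 12-array comparison the calls of Rhob, Dusp1 and Zfp36 were made under all 20 alternatives run, and that of Ier2 under 18.

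**Figure D2:**
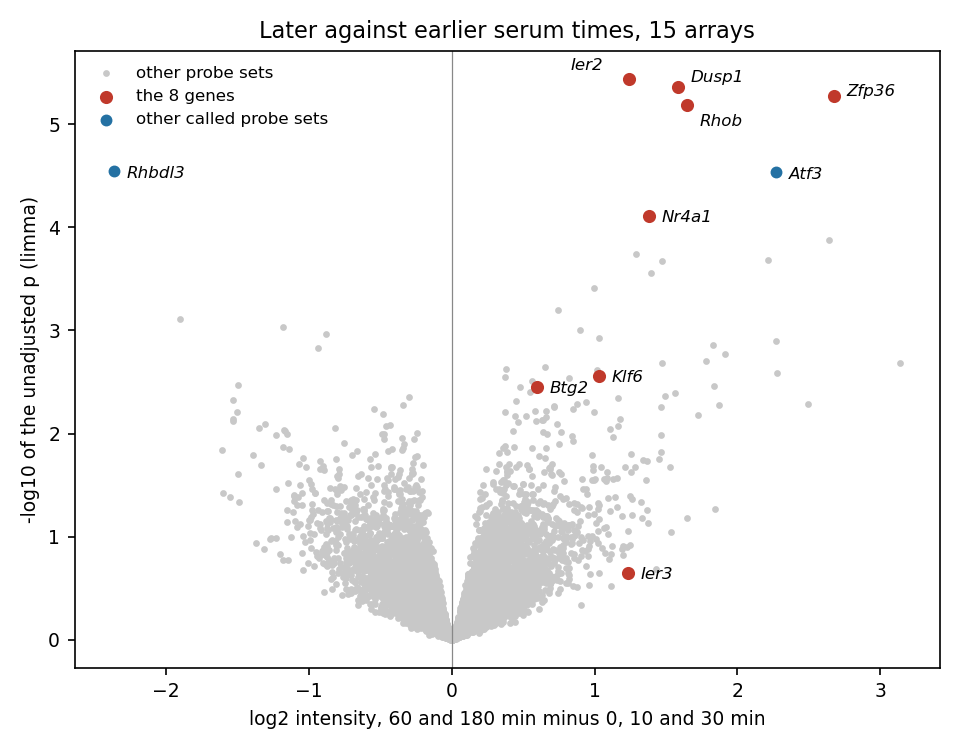
Difference of 60 and 180 min from 0, 10 and 30 min (log2, x axis) against the -log10 of the unadjusted limma p (y axis) for the 9558 probe sets over 15 arrays; red points are the 8 genes and blue points the other called probe sets. Ier2, Dusp1, Zfp36 and Rhob lie highest on the y axis, and Ier3, at 1.24, has a difference like that of Ier2 with a far larger error.

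Between 30 and 60 min the 8 genes had a median difference of 1.04, against 0.00 over all probe sets. This contrast was not among those laid out first, and it spans the change on which the split at 60 min was chosen. Without the 0 min arrays, Rhob rose by 1.62 ± 0.18 and Dusp1 by 1.47 ± 0.17 (SE; limma adjusted p = 0.0326 each), and they were the 2 probe sets called of 9198 (0.0217%). The call of Dusp1 was lost without any 1 of the 12 arrays, and that of Rhob without any 1 but the Srf-null array of 60 min (limma adjusted p 0.0607 to 0.267 where lost). Zfp36 differed by 2.11 ± 0.44 (adjusted p = 0.350) and Btg2 by 0.12 ± 0.17 (adjusted p = 0.975). With all 15 arrays 0 probe sets (0%) were called in this contrast by limma, 239 had an unadjusted p under 0.05, and 5 of these were of the 8 genes. At 180 min against 10 min, without the 0 min arrays, Rhob at 1.89 ± 0.18, Dusp1 at 1.96 ± 0.17, Ier2 at 1.60 ± 0.21 and Klf6 at 1.45 ± 0.22 were called (SE; limma adjusted p 0.00164 to 0.0321), among 17 probe sets that rose (0.185%). The calls of Rhob and Dusp1 were made without any 1 array, while that of Ier2 was lost without 5 single arrays (10 min of each line, and 180 min of Srf-null or rescue) and that of Klf6 without 9 (all but rescue 60 min and wild-type 30 and 60 min). Zfp36 and Btg2 had differences of 2.58 and 0.94 there (adjusted p = 0.0679 and 0.0980).

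With the phases laid out first, which set 30 and 60 min together as early against 0 and 10 min, 0 of the 8 genes and 0 of 9558 probe sets (0%) were called over the lines (limma, 15 arrays). An unadjusted p under 0.05 was seen for 243 probe sets, Zfp36 at 1.67 and Btg2 at 0.40 among them. That phase joins 1 time at the level of 10 min and 1 above it for most of the 8 genes, as the values show. Within Srf-null cells 0 of the 8 genes and 7 probe sets (0.0732%) were called in this phase, and within rescue or wild-type cells alone 0 probe sets (0%). The contrast of 60 min alone with 0 and 10 min, also laid out first, called 0 of 9558 probe sets (0%; limma, 15 arrays). An unadjusted p under 0.05 was seen in it for 6 of the 8 genes and for 414 probe sets (4.33%). Without the 0 min arrays, 60 min against 10 min called 0 of 9198 probe sets (0%). At 180 min against 0 and 10 min 0 of the 8 genes were called with 15 arrays, against 5 probe sets in all (0.0523%), although 7 of the 8 had an unadjusted p under 0.05, all but Ier3. Such a p (limma) was seen for 387 of all 9558 probe sets (4.05%). The early response of Srf-null cells minus that of both other lines gave 2 calls (0.0209%) and 0 of the 8 genes.

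The next comparison sets the serum steps of the 3 lines side by side. With 1 culture series per line, the Srf genotype cannot be told apart from other differences between lines, cultures or arrays. In Srf-null cells, without the 0 min arrays, Dusp1 differed by 1.70 ± 0.32 between later and earlier times, Zfp36 by 1.58 ± 0.35, Rhob by 1.37 ± 0.24, Ier2 by 1.04 ± 0.28 and Klf6 by 0.98 ± 0.32 (SE, 4 arrays per line). These correspond to 3.26-, 2.99-, 2.59-, 2.05- and 1.97-fold, with unadjusted p-values of 0.000233 to 0.0133, and 0 probe sets (0%) were called in this line (limma). Over all 15 arrays 4 probe sets (0.0418%) and 0 of the 8 genes were called in it. In Srf-null cells Nr4a1 differed by 0.35 ± 0.31 and Btg2 by 0.12 ± 0.27.

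In rescue cells 1 of the 8 genes was called, Rhob at 2.06 ± 0.24 (SE; limma adjusted p = 0.0274), among 3 probe sets that rose (0.0326%). When the 0 min array was kept, Rhob had 1.49 ± 0.44 in rescue cells (adjusted p = 1), and 0 of the 8 genes and 2 probe sets (0.0209%) were called there. In wild-type cells Zfp36 at 3.40 ± 0.35, Nr4a1 at 2.34 ± 0.31 and Rhob at 1.83 ± 0.24 were called (SE; limma adjusted p = 0.0142, 0.0397 and 0.0397), among 6 probe sets that rose (0.0652%). Leaving out single arrays ended that of Rhob in rescue cells for 9 of the 12 (all but Srf-null 60 and 180 min and wild-type 180 min; limma adjusted p up to 0.181). In wild-type cells it ended that of Nr4a1 for 9 (all but rescue 60 and 180 min and wild-type 60 min), that of Rhob for 9 (all but Srf-null 60 and 180 min and wild-type 60 min) and that of Zfp36 for 5 (rescue 10 and 30 min and wild-type 10, 30 and 180 min), with adjusted p up to 0.306. With all 15 arrays Nr4a1 was the 1 of the 8 genes called in wild-type cells, at 2.31 ± 0.33 (adjusted p = 0.0335), among 3 probe sets that rose (0.0314%).

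The difference of these steps between lines was tested directly, and 0 of the 8 genes were called, against 1 probe set (0.0109%) with a smaller step in Srf-null cells, both against the mean of the other lines and against wild-type cells alone. Against the mean of both other lines over 12 arrays, the step of Nr4a1 in Srf-null cells differed by -1.37 ± 0.38 (SE, log2, 95% interval -2.22 to -0.53; unadjusted p = 0.00497, limma adjusted p = 0.9996) and that of Zfp36 by -1.14 ± 0.43 (-2.11 to -0.18; adjusted p = 0.9996). For Dusp1 this difference was -0.02 ± 0.39, with a 95% interval of -0.90 to 0.86. For Ier2 it was -0.42 (-1.19 to 0.35), for Klf6 -0.28 (-1.17 to 0.60), for Rhob -0.57 (-1.23 to 0.09) for Btg2 -0.62 (-1.37 to 0.12) and for Ier3 0.95 (-4.38 to 6.29). These intervals do not show that the steps were equal. Against wild-type cells alone Nr4a1 had -1.99 ± 0.44 (-2.97 to -1.01; unadjusted p = 0.00118, adjusted p = 0.946) and Zfp36 -1.82 ± 0.50 (-2.93 to -0.71; adjusted p = 1). The step of rescue cells minus that of Srf-null cells gave 0 calls over all probe sets (0%; limma, 390 with an unadjusted p under 0.05 over 12 arrays and 429 over 15), and 0 of the 8 genes had an unadjusted p under 0.05 in either array set. The median of the 8 genes in it was 0.50 over 12 arrays and -0.03 over 15, and Nr4a1 had 0.75 ± 0.44 over 12.

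Egr1 and Fosb, genes known to depend on SRF, are given beside these values. Fos, another immediate-early gene, had no clear serum course on these arrays. It read 523, 93.7, -40.1, 136 and 332 units from 0 to 180 min in wild-type cells. Its highest values were 207 units in rescue and 231 units in Srf-null cells. Egr1, an immediate-early zinc-finger factor, read 248, 343, 176, 260.4 and 201 units from 0 to 180 min in Srf-null cells. At 60 and 180 min it had 8094 and 13748 units in rescue cells and 9120.2 and 17551 units in wild-type cells. Its step was -0.10 ± 0.55 in Srf-null, 3.35 ± 0.55 in rescue and 3.86 ± 0.55 in wild-type cells (SE, 12 arrays). Fosb, a subunit of the AP-1 factor, read 1311 to 1621 units in Srf-null cells from 10 min on, while it had 4956 and 4685 units at 60 and 180 min in rescue cells and 6059 and 5913 units in wild-type cells. Its step in Srf-null cells minus that in the other lines, -1.81 ± 0.17, was the 1 called of 9198 probe sets (SE; limma adjusted p = 0.0165, 0.0109%). Egr1 had -3.71 ± 0.68 in that contrast (adjusted p = 0.460). Within Srf-null cells Dusp1, Zfp36, Rhob, Ier2 and Klf6 thus had log2 steps of 0.98 to 1.70 from 10 and 30 min to 60 and 180 min (1.97- to 3.26-fold), without a call. Fosb had a log2 step of 0.23 ± 0.14 (SE) in these cells. Other immediate-early genes had steps in Srf-null cells of the size of those of the 8 genes, again without a call: Junb had 2.19 ± 0.80 (unadjusted p = 0.0225), Atf3 1.48 ± 0.50 (0.0156) and Jun 1.50 ± 0.94 (0.143). In these cells Junb was under the floor at 10 min, at 46.3 units, and highest at 0 min, at 1602 units. Jun was under the floor there at 30 and 60 min, so its step rested on the 180 min array, at 758 units.

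**Figure D3:**
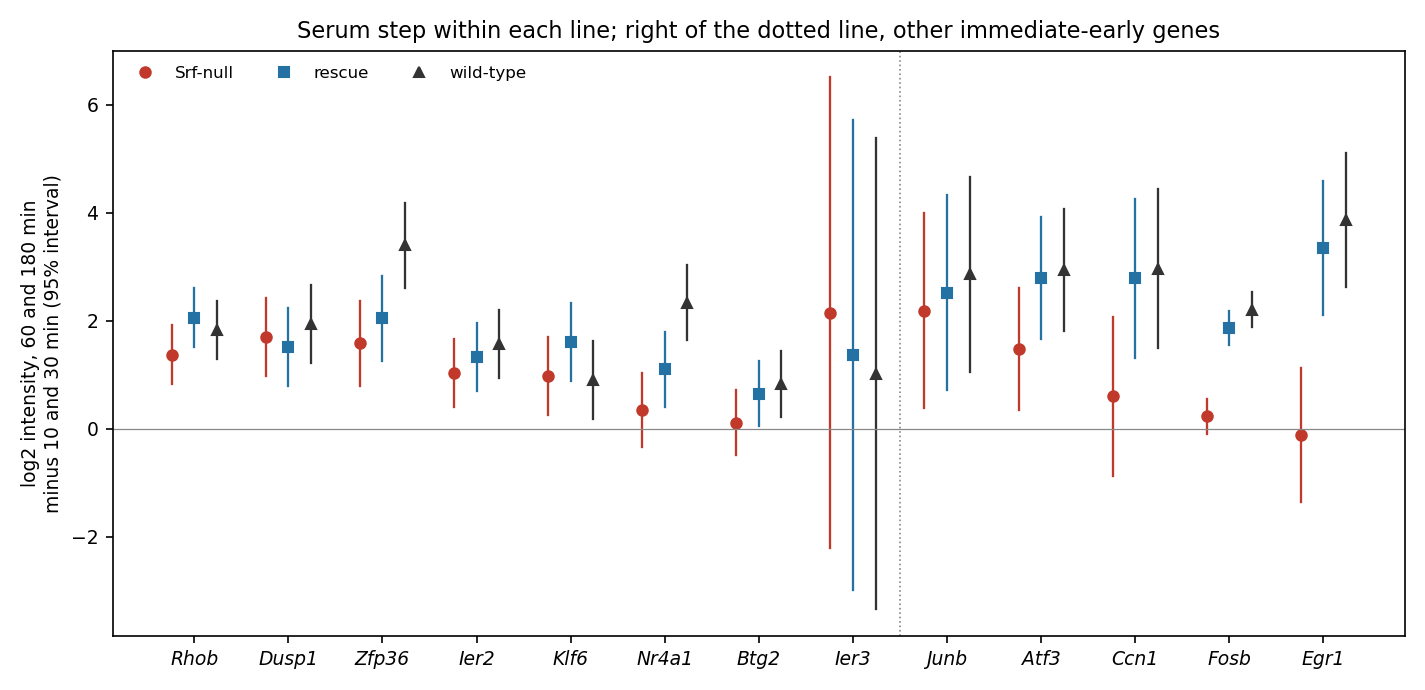
Difference of 60 and 180 min from 10 and 30 min (log2, y axis) within Srf-null (red circles), rescue (blue squares) and wild-type cells (black triangles), with 95% intervals from limma over 12 arrays, for the 8 genes and, right of the dotted line, 5 other immediate-early genes. In Srf-null cells the intervals of Rhob, Dusp1, Zfp36, Ier2 and Klf6 lie above 0 and those of Nr4a1, Btg2, Fosb, Ccn1 and Egr1 include 0.

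Over the course as a whole, the 8 genes were compared between lines with the time points as the repeated measure. Without the 0 min arrays, Rhob was lower in Srf-null cells than in both other lines by 0.85 on the log2 scale (log2 -0.85 ± 0.14, SE, 1.80-fold; limma adjusted p = 0.0182) and Btg2 by 0.72 (-0.72 ± 0.13, 1.65-fold; adjusted p = 0.0263). These 2 calls stood among 86 probe sets that were lower in Srf-null cells (0.935%) and 59 that were higher (0.641%). The other differences were -0.76 ± 0.33 for Zfp36, -0.55 ± 0.16 for Ier2, -0.54 ± 0.16 for Klf6, -0.45 ± 0.13 for Dusp1, -0.19 ± 0.30 for Nr4a1 and 0.36 ± 1.12 for Ier3, with adjusted p from 0.134 to 0.914. With all 15 arrays 0 of the 8 genes were called, against 10 probe sets lower in Srf-null cells (0.105%) and 3 higher; Rhob had -0.95 ± 0.26 (adjusted p = 0.235), Ier2 -0.73 ± 0.18 (0.186) and Btg2 -0.59 ± 0.16 (0.218), and 5 of the 8 had an unadjusted p under 0.05. Over all 9558 probe sets 1001 (10.5%) had such a p (limma).

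At 60 and at 180 min 7 of the 8 genes, all but Ier3, had their lowest value in Srf-null cells, which 16.1% of all probe sets did. The share of values at or below 0 moved with this comparison: it was 37.1% to 41.6% on the Srf-null arrays of 60 and 180 min, and 24.9% to 27.5% on those of rescue and wild-type cells at these times. At 10 and 30 min the lines overlapped, with 26.7% to 39.0% in Srf-null, 26.0% to 37.4% in rescue and 25.1% to 27.2% in wild-type cells. In rescue cells the share was thus higher at these earlier times than at 60 and 180 min. The 3'/5' ratio of the actin control moved with the comparison of lines as well: at 60 and 180 min it was 1.94 to 3.83 in Srf-null, 0.914 to 1.42 in rescue and 0.867 to 2.11 in wild-type cells, and at 10 and 30 min it was 1.64 to 1.79 in Srf-null, 0.989 to 1.13 in rescue and 0.847 to 1.30 in wild-type cells. The 3'/5' ratio of the Gapdh control did not move in this way. At 60 and 180 min it was 0.785 and 0.687 in Srf-null, 0.686 and 0.742 in rescue and 0.683 and 1.23 in wild-type cells. The part of RNA integrity in the result was not tested. With the share of values at or below 0 as a term in the model, Rhob had -0.67 (adjusted p = 0.316) and Btg2 -0.62 (adjusted p = 0.402), and neither was called. The call of Rhob was also lost without the Srf-null array of 60 min (-0.71, adjusted p = 0.0665), that of 180 min (-0.79, 0.0767), or the rescue array of 60 min (-0.81, 0.0534) or 180 min (-0.81, 0.0540). That of Btg2 was lost without any 1 of 7 arrays: Srf-null 60 or 180 min, rescue 30, 60 or 180 min, or wild-type 10 or 60 min (adjusted p 0.0569 to 0.118).

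**Figure D4:**
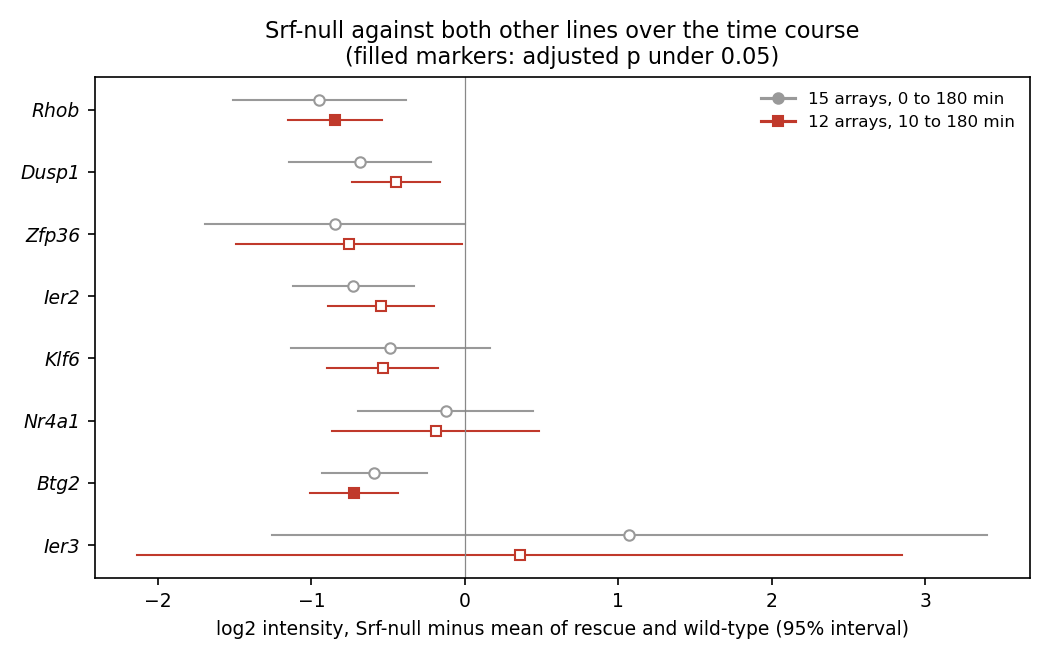
Difference of Srf-null cells from the mean of rescue and wild-type cells (log2, x axis) with 95% intervals from limma for the 8 genes, over 12 arrays from 10 min on (red squares) and over all 15 arrays (grey circles); filled markers have an adjusted p under 0.05. Rhob and Btg2 are filled in the 12-array comparison, 7 genes lie below 0 in both, and Ier3 has the widest intervals.

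Rescue cells were set against Srf-null cells in the same model. Without the 0 min arrays Btg2 was higher in rescue cells by 0.97 ± 0.15 (SE, 1.95-fold; limma adjusted p = 0.00953), Rhob by 0.93 ± 0.16 (1.90-fold; 0.0146) and Dusp1 by 0.68 ± 0.15 (1.61-fold; 0.0463), among 125 probe sets that were higher (1.36%). The call of Btg2 was made without any 1 array, that of Rhob was lost without Srf-null 180 min or rescue 60 or 180 min (limma adjusted p 0.0520 to 0.0820), and that of Dusp1 without any 1 array but wild-type 30 min (0.0522 to 0.186). With the share of values at or below 0 as a term, Btg2 had 0.87 (adjusted p = 0.101), Rhob 0.77 (0.134) and Dusp1 0.66 (0.245), and 0 of the 3 were called. Zfp36 differed by 0.88 ± 0.38, Klf6 by 0.64 ± 0.19, Ier2 by 0.41 ± 0.18, Nr4a1 by -0.14 ± 0.35 and Ier3 by -0.58 ± 1.29, none called. With all 15 arrays 0 of the 8 were called, and 11 probe sets were higher in rescue cells (0.115%). An unadjusted limma p under 0.05 was seen there for 6 of the 8, and for 878 of all 9558 probe sets (9.19%).

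Srf-null cells set against wild-type cells alone gave 0 calls among the 8 genes in either array set, with 24 probe sets lower in Srf-null cells over the 12 arrays (0.261%) and 0 with 15 (0%). The largest differences over 12 arrays were -0.77 ± 0.16 for Rhob (limma adjusted p = 0.0892) and -0.68 ± 0.18 for Ier2 (adjusted p = 0.179). Rescue against wild-type cells also gave 0 calls, with 48 probe sets called in either direction over 12 arrays (0.522%) and 0 with 15 (0%). Btg2 differed by 0.49 ± 0.15, Dusp1 by 0.47 ± 0.15 and Nr4a1 by -0.66 ± 0.35 there (SE; adjusted p = 0.283, 0.297 and 0.587). These comparisons share arrays and are not independent of each other.

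Other genes of the same pathways were read from 4 lists, with the brightest probe set on average standing for a gene. The median difference of 60 and 180 min from the earlier times, over 15 arrays, was 1.31 for the 8 genes, 0.78 for 23 other immediate-early genes, 0.26 for 19 other feedback regulators, 0.17 for 13 relatives of the 8 genes and 0.03 for 13 components of the MAP kinase and SRF pathways, beside -0.01 over all probe sets. The immediate-early list had 1 call, Atf3 (higher), and the other 3 lists had 0; an unadjusted p under 0.05 was seen for 9, 4, 3 and 0 genes of the 4 lists, and for 3.85% of all probe sets.

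Without the 0 min arrays, Atf3 at 2.41 ± 0.33, Junb, an AP-1 subunit, at 2.52 ± 0.43 and Gadd45a, a stress sensor, at 0.72 ± 0.13 were called among the immediate-early genes (SE; limma adjusted p = 0.00918, 0.0382 and 0.0493), and 0 genes of the other lists. Among the feedback regulators the NF-kappa-B inhibitor Nfkbia had 0.80 ± 0.16 (adjusted p = 0.0927), the cytokine signalling inhibitor Socs3 0.63 ± 0.12 (0.0796) and the ERK phosphatase Dusp6 0.47 ± 0.12 (0.242). Of the relatives, Zfp36l1 had 0.49 ± 0.10 (0.113) and Klf10 0.46 ± 0.11 (0.145), while Klf4, Btg1 and Rhoa had 0.24, -0.17 and -0.09. A second probe set of Klf10, with a lower mean, was called at 0.75.

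**Figure D5:**
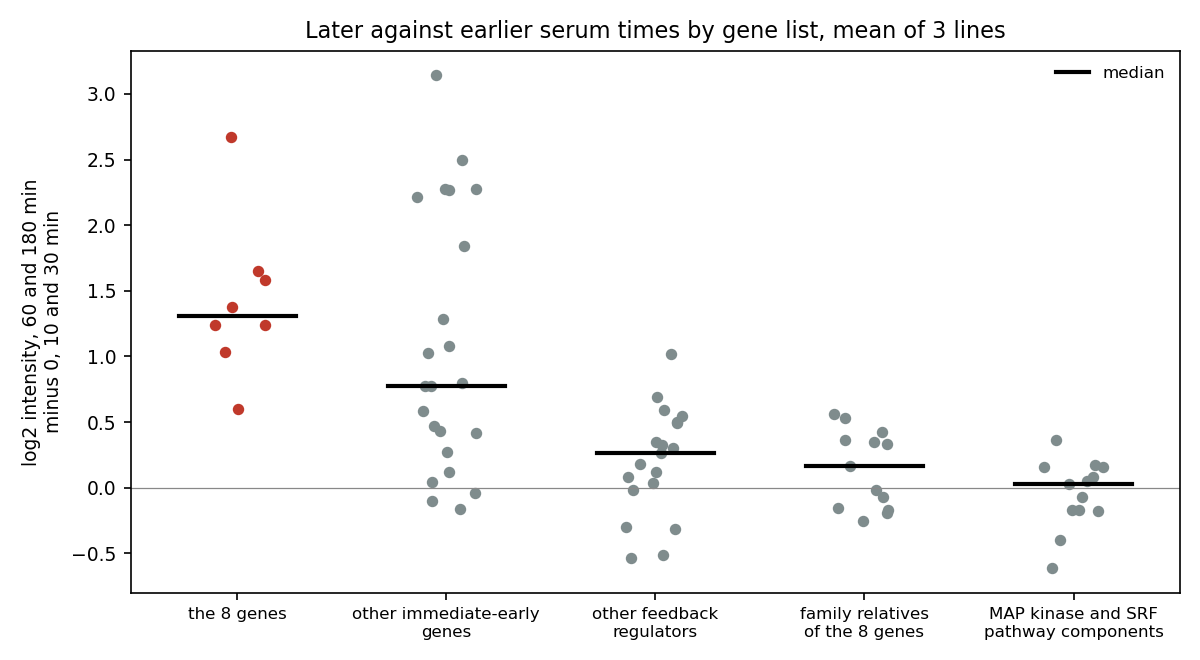
Difference of 60 and 180 min from 0, 10 and 30 min (log2, y axis, mean of 3 lines over 15 arrays) for each gene (points, spread sideways for sight only) of the 8 genes and of 4 lists, with the median as a bar. The medians are 1.31, 0.78, 0.26, 0.17 and 0.03 from left to right.

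Between lines, over 12 arrays, 4 of the 23 immediate-early genes were lower in Srf-null cells than in both other lines, Egr1 at -3.80 ± 0.67, Ccn1 at -2.35 ± 0.49, Atf3 at -2.09 ± 0.33 and Irf1 at -0.77 ± 0.15, and 2 were higher, Plaur at 1.63 ± 0.28 and Gadd45a at 0.70 ± 0.14 (SE; limma adjusted p 0.0156 to 0.0482). Of 18 other feedback regulators 1 was lower, Errfi1, an inhibitor of the EGF receptor, at -1.72 ± 0.28 (adjusted p = 0.0195). Of 13 relatives 2 were higher, Klf5 at 0.71 ± 0.12 and Klf3 at 0.58 ± 0.11 (adjusted p = 0.0211 and 0.0341), and 0 of 13 pathway components were called. The medians were -0.54 for the 8 genes, -0.34 for the immediate-early genes, -0.12 for the feedback regulators, 0.23 for the relatives and 0.02 for the components, beside 0.02 over all probe sets.

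The 8 genes were set against each other over the 15 arrays, which share their normalization, as a description. The 21 pairs without Ier3 had Pearson correlations of log2 intensity from 0.397 (Klf6 with Nr4a1) to 0.949 (Dusp1 with Rhob), with a median of 0.731. Rhob and Klf6 had 0.915, Ier2 and Rhob 0.893, and Zfp36 and Rhob 0.883. The 7 pairs with Ier3 ran from 0.0651 to 0.480, with a median of 0.157. Without the 0 min arrays the medians were 0.847 and 0.274.

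Among 7068 named probe sets that exceeded the floor on 5 arrays or more, the 10 most like the mean profile of the 8 genes were those of Hnrnpa1 (r = 0.877 over 15 arrays), Junb (0.862), Atf3 (0.859), Jun (0.847), Ccn2 (0.842), Brd2 (0.818), Ccn1 (0.809), Rbbp6 (0.793), Akap8 (0.790) and Taf1d (0.788). Taken singly, Zfp36 was most like Junb (0.915), Ier2 also Junb (0.894), Rhob Atf3 (0.892) and Btg2 another probe set of Atf3 (0.933). Dusp1 was most like Id3 (0.905), Klf6 Taf1a (0.900), Nr4a1 Oprk1 (0.803) and Ier3 Tex264 (0.898). The Junb probe set of these correlations and the Atf3 probe set most like Btg2 were not those called for later against earlier times.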

How the data were processed

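Total RNA of 15 ES cell samples was measured on Affymetrix MGU74A arrays. The deposited values are linear intensities of 12654 probe sets, controls included (66), and 0 columns lacked a sample. How the authors scaled and background-corrected them was not given in the sources used here. Per array 24.9% to 41.6% of the deposited intensities were 0 or negative and the 2% trimmed mean ran from 350.2 to 1438, so values were quantile-normalized, floored at the 40th percentile and taken to log2. Genes were named from GEO's platform annotation with 1 gene per probe set (10298 probe sets; 1993 were not listed). Models were fitted with limma 3.58.1 under R 4.3.3 (lmFit, eBayes with a trend): of line and time, of line by phase (0 and 10, 30 and 60, 180 min) and, added after the values were seen, of line and the step at 60 min, which was tested on simulated data. The number of arrays limits the precision. Named genes were the 8 genes, the most correlated probe sets, called genes of the lists and a few immediate-early genes. The members, lists and tests were chosen with earlier results of these data known, and nothing here is independent of them. Alternatives were median scaling, other floors and filters, no trend, 1 probe set per gene, 2 technical terms and left-out arrays; those with the 12 arrays were added after the values were seen.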

Additional observations from a re-analysis of the deposited data

Results flagged for a closer look

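Ier3 was the only 1 of the 8 genes to stand out by the rules used here for single arrays and for opposite courses. Among its 5 rescue arrays, that of 10 min, at 125 units against 710.4 to 1151 units at the other times, lay apart by 0.783 of the group's whole log2 range, where Dixon's 95% limit for 5 samples is 0.710. It was 1 of 24 groups tested in this way, and chance flags about 1 in 20.

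From 30 to 180 min, every Srf-null value of Ier3 lay below the mean of its own 0 and 10 min values, while every rescue and every wild-type value lay above theirs. For rescue cells this rested on the 10 min array flagged above. Their values at 30 and 60 min, 982 and 710.4 units, lay below the 1073 units of 0 min. In wild-type cells both the 0 and the 10 min value had been set to the floor. The mean change in Srf-null cells minus that in rescue cells was -3.53 on the log2 scale, and minus that in wild-type cells -6.42. These opposite courses were not tested themselves; in the phase model of 30 and 60 min the Srf-null response minus that of both other lines was -5.03 (unadjusted p = 0.0343, limma adjusted p = 0.517). The values of Ier3 ran from below 0 to 4604 units, and it was under the floor on 3 of the 15 arrays.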

How the results depend on the processing

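In the 12-array comparison of 60 and 180 min with 10 and 30 min, 5 of the 8 genes were called, and 3 under median scaling and with no filter on low values, Dusp1, Rhob and Zfp36 in both. With 15 arrays the 4 calls became 0 with no filter and ran from 0 to 5 when 1 array was left out. At 180 min against 0 and 10 min with 15 arrays, 1 gene (Btg2) in place of 0 was called with no filter. In Srf-null cells against both other lines, the 0 calls of 15 arrays became 2 without the 0 min arrays and 2 without the wild-type and rescue arrays of 0 min, and ran from 0 to 1 without any 1 array. The 2 calls of the 12 arrays became 1 with no filter, 1 without an intensity trend and 0 with the non-positive share in the model, and ran from 0 to 3 without any 1 array.

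Every difference of later from earlier times kept its sign under the 25 alternatives of the 15-array and the 20 of the 12-array comparison. Between lines over 15 arrays, Ier3 turned to -0.27 with the 18S signal as a term, and Nr4a1 ran from -0.31 to 0.065 without any 1 array. Over 12 arrays Ier3 turned to -0.54 with the 18S term and ran from -0.92 to 1.95 without any 1 array, and Nr4a1 from -0.46 to 0.042. The early response over the lines ran from -0.085 to 1.59 for Ier3 and from -0.10 to 0.49 for Klf6 without any 1 array. None of these was called.

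The early response of Srf-null cells minus that of both other lines, which gave 0 calls, changed sign most often: under median scaling for Zfp36 (-0.64) and Rhob (-0.61); with the floor at the 60th percentile for Zfp36 (-0.60); without the 0 min arrays for Ier2 (-0.26) and Rhob (-0.38); without those of wild-type and rescue cells alone for Ier2 (-0.085) and Rhob (-0.23); with the non-positive share as a term for Klf6 (0.28) and Nr4a1 (2.93); and with the 18S term for Zfp36 (-0.50), Ier2 (-0.0013) and Klf6 (0.0066). Without any 1 array it ran from -0.044 to 1.24 for Dusp1, from -0.13 to 0.65 for Ier2, from -0.96 to 0.18 for Nr4a1, from -0.56 to 0.62 for Rhob and from -0.43 to 1.21 for Zfp36. The cause of these changes was not tested.

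A floor at the 20th percentile was not run, since that percentile is -102.4 and has no log. The phase model could not be fitted without a 180 min array. No paired analysis by replicate number was possible because the labels give none; arrays of different lines were matched by serum time in the model of line and time. With 1 array per line and time, and Zfp36 and Ier3 at the floor on some arrays, differences of those 2 genes from such values are lower limits.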
